A study of Mus musculus with 3 samples.

Results

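Heat shock proteins are chaperones, which keep other proteins folded, refold damaged ones or hand them on for breakdown. Cells under heat, oxidative or other protein-damaging stress switch on the inducible chaperone genes through heat shock factor HSF1, which binds short repeated elements in their promoters, while other chaperones are made at a high level all the time. Heme oxygenase, which opens the heme ring and releases iron, carbon monoxide and biliverdin, is induced by oxidative stress and heme, mainly through the factor NRF2. The 10 genes followed here are the inducible HSP70 genes Hspa1a and Hspa1b, the constitutive HSP70 gene Hspa8, the HSP70 partner genes Hsph1 and Dnajb1, Hsp90aa1 of the HSP90 family, the small heat shock protein gene Hspb1, the mitochondrial chaperonin genes Hspd1 and Hspe1, and Hmox1, the gene of inducible heme oxygenase. They were followed through the loss of Oct3/4, the product of Pou5f1, in mouse embryonic stem (ES) cells.

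Members were taken by name, as every probe set that the array annotation gives to 1 of these genes alone. A probe set is a group of short probes read together as 1 value, and some match more than 1 transcript. The rule found 23 of the 45037 probe sets, between 1 and 5 for each gene, and 0 probe sets that named a member together with another gene. The cells are mouse ES cells with a conditional knockout of Pou5f1, profiled on Affymetrix arrays at day 0, day 1 and day 2, with 1 array per day. All 3 groups therefore carry the same conditional allele. The sources used here do not give the way the knockout was induced, the part of the gene that was removed or whether the cells are a single clone. No culture with Oct3/4 intact was profiled at day 1 or day 2, so loss of Oct3/4, time in culture and any inducing treatment cannot be told apart.

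With 1 array per day there is no spread between replicates and no test, and every difference describes these 3 arrays. The deposited values are MAS5 signals, an intensity on a linear scale. Differences are given on the log2(signal + constant) scale with 55.9 as the constant (the pooled 40th percentile of the signals), and a fold is 2 raised to that difference, which understates the change of dim genes. As a guide to error there is only the disagreement among probe sets of a gene, pooled over the whole array. Its SD was 0.34 in log2 for the whole span from day 0 to day 2 and 0.30 for either single day. It leaves out variation between cultures and hybridisations. Each gene is represented by its brightest probe set among those with a mean signal of at least the constant. Of the 23 member probe sets 22 passed that filter, and the other, 1441827_x_at of Hsp90aa1, is given below with its signals only.

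Markers were checked against the day labels. Pou5f1, the targeted gene, gave signals of 2400, 40.8 and 15.5 over day 0, day 1 and day 2. The signals of 8 ES cell marker genes summed to 112647, 68213 and 23660 over the days, and all 8 were at least 2-fold lower at day 2 than at day 0. Those of 6 trophectoderm genes, markers of the placental lineage, summed to 7100, 10083 and 52214, and all 6 were at least 2-fold higher. Fibroblast markers were dim, with 5 of 8 below the constant on average, Col1a1, Col3a1 and Dcn among them, and a summed signal of 703, 655 and 479. Thy1 alone carried the lower sum at day 2, and without it the other 7 summed to 303, 380 and 389, with Pdgfrb at 0.62 and Col1a2 at 0.26 for day 2 against day 0. Cell identity therefore moved together with day in every comparison below, and its part in the chaperone values was not tested. In such bulk RNA, a change in the share of cells of a type and a change in RNA per cell cannot be told apart.

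The 10 genes fell into a small group that was higher at day 2 and a larger group near its starting level. At day 2, Hmox1, Hspa1b and Hspa1a were at least 2-fold above day 0, and 0 of the 10 genes were at least 2-fold lower. Among all 12717 genes measured, 5.25% were higher by that rule and 5.65% lower. The median of the 10 genes was 0.07, beside 0.05 for all genes, so the middle of the list lay close to that of the array. Of the 22 member probe sets, 5 were at least 2-fold higher, against a background of 4.77% of probe sets, and 0 were lower, against 5.09%. All of the 5 belong to these 3 genes. Between day 1 and day 0, 0 of 10 genes passed 2-fold in either direction, where the background was 2.4% higher and 2.59% lower. Between day 2 and day 1, Hspa1b and Hmox1 passed 2-fold upwards and 0 genes passed it downwards, against backgrounds of 2.09% and 2.65%.

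**Figure D1:**
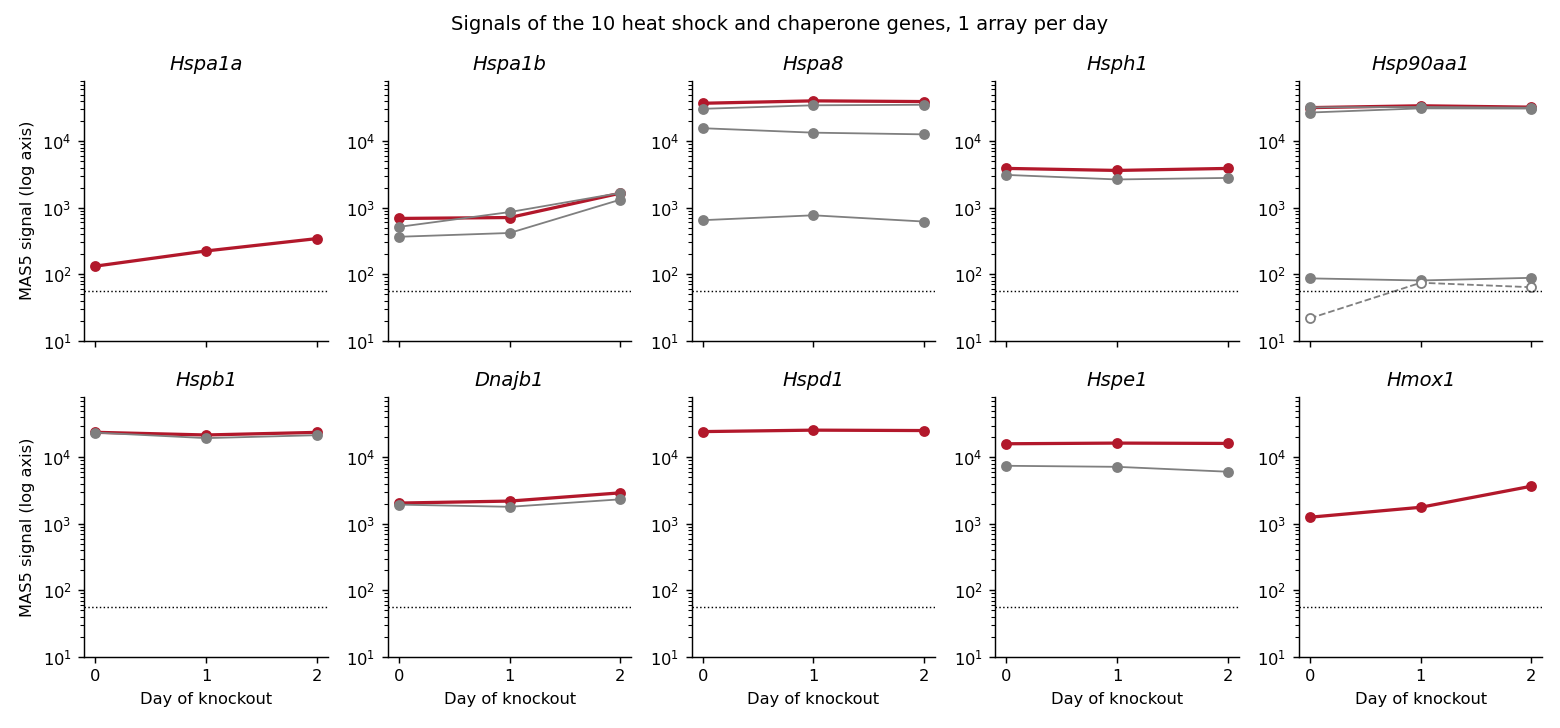
MAS5 signal (log axis) of every member probe set at day 0, day 1 and day 2, 1 panel per gene and 1 point per array. Red lines are the probe sets that represent the genes, grey lines the others, the dashed line with open points is the probe set below the filter, and the dotted line is the constant of 55.9. Hspa1a, Hspa1b and Hmox1 climb towards day 2 while most other lines are level. Heights in different panels come from different probes and are not comparable.

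Hspa1a and Hspa1b encode the stress-inducible HSP70, which is scarce in most unstressed cells. Hspa1b was measured by 3 probe sets. Probe set 1452318_a_at gave signals of 686, 708 and 1647 for day 0, day 1 and day 2. Probe set 1427127_x_at gave 512, 856 and 1664, and 1427126_at gave 364, 415 and 1316. On all 3 probe sets day 2 was the highest array by a wide margin and day 0 the lowest. The differences for day 2 against day 0 were 1.20, 1.60 and 1.71 in the same order, which are 2.30-fold, 3.03-fold and 3.27-fold. The probe sets therefore shared a direction but differed in size, with the representative probe set at the low end. Without the constant, the ratios of the raw signals at day 2 over day 0 were 2.40, 3.25 and 3.62 in the same order.

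They disagreed about the first day. For day 1 against day 0, 1452318_a_at gave 0.04 and 1427126_at gave 0.17, both below the pooled probe set SD of 0.30, while 1427127_x_at gave 0.68. For day 2 against day 1 the values were 1.16, 1.54 and 0.92, listed for 1452318_a_at, 1427126_at and 1427127_x_at. Most of the Hspa1b difference lay between day 1 and day 2 on all 3 probe sets, and whether any of it lay in the first day depended on the probe set. The suffix _x_at marks probe sets whose probes may also match other transcripts, and _a_at those that match several transcripts of the same gene.

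Hspa1a, the neighbouring copy on chromosome 17, was measured by 1 probe set, 1452388_at, with signals of 132, 223 and 341 over the days. Each day stood above the one before, and all 3 arrays stood above the constant. The difference for day 2 against day 0 was 1.08, or 2.12-fold, made of 0.57 in the first day and 0.51 in the second. It lies just above the 2-fold line, and it was 0.90 with the constant doubled and 0.96 with equal medians of ribosomal protein genes. The coding sequences of Hspa1a and Hspa1b are nearly identical, so probes for either copy may have bound transcripts of both, and their values are uncertain as values of separate genes.

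The promoters of the copies are also nearly identical, and that of Hspa1b is shown because both genes were at least 2-fold higher at day 2. Both windows run from 250 bases before to 50 bases after the start of the gene, on the minus strand, from RefSeq with build GRCm38.p6. They match at 296 of 300 positions without gaps. Counted from 1 at the 5′ end, Hspa1a differs from Hspa1b by T44C, C47T, G249T and T276C. Capitals mark the single match to a pair of heat shock units in inverted repeat, GAANNTTC or TTCNNGAA, which starts at −104 from the gene start in both copies and holds none of these differences.
Hspa1b, chr17:34959189-34959488: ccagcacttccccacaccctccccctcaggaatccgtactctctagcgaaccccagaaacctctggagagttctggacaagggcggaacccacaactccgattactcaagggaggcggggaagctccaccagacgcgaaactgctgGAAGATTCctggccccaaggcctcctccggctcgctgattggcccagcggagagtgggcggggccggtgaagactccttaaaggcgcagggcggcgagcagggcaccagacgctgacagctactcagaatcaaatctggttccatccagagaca

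Hmox1 encodes inducible heme oxygenase and had the largest difference at day 2 among the representative probe sets of the 10 genes, although the other 2 probe sets of Hspa1b, at 1.60 and 1.71, exceeded it. Its single probe set, 1448239_at, gave signals of 1257, 1772 and 3676 for day 0, day 1 and day 2. The level stood higher on each day than on the day before, with the wider gap between day 1 and day 2. The differences were 1.51 at day 2 against day 0, or 2.84-fold, with 0.48 of it in the first day and 1.03 in the second. Among the 12717 genes 98.3% had a smaller or more negative difference for day 2 against day 0, and the figure was 96.7% for Hspa1b and 95.6% for Hspa1a. With a single probe set, the value for Hmox1 has no second measurement on the array.

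Some genes outside the list followed nearly the same path as Hmox1. The 5 measured genes with the smallest Euclidean distance to it, over the pair of day-to-day differences in log2, were Cdc42ep2 (0.03), Elf3 (0.03), Shtn1 (0.04), Ilk (0.04) and Magi3 (0.06). Elf3, an epithelial transcription factor of the ETS family, had signals of 1115, 1598 and 3369 from day 0 to day 2. Ilk, the gene of integrin-linked kinase, had 992, 1391 and 2975. The likeness rests on 3 arrays, which all genes share, and says nothing of shared function or control.

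**Figure D2:**
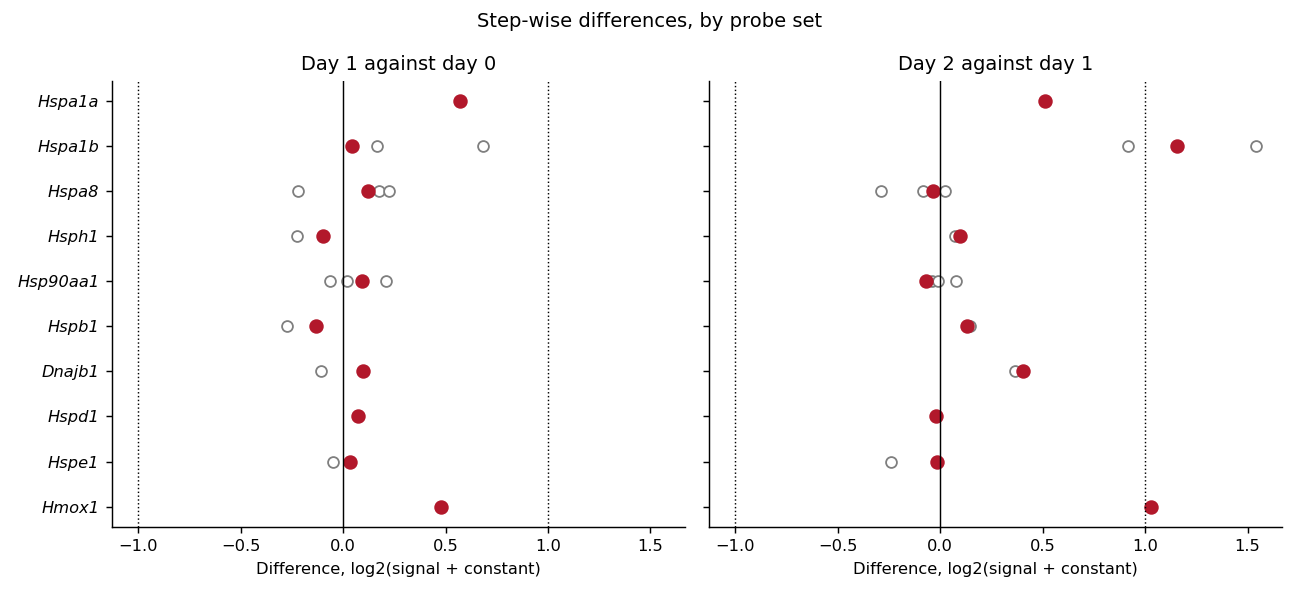
Differences in log2(signal + constant) of the 10 genes for day 1 against day 0 (left) and day 2 against day 1 (right). Red points are the probe sets that represent the genes, open points the other probe sets above the filter, and dotted lines mark 2-fold. The 3 probe sets of Hspa1b lie between 0.04 and 0.68 on the left and between 0.92 and 1.54 on the right.

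The partners of HSP70 were nearer their starting levels. Dnajb1, a J-domain protein of the HSP40 class that hands clients to HSP70 and starts its ATP cycle, gave signals of 2051, 2197 and 2921 over the days on 1416756_at, and 1944, 1802 and 2335 on 1416755_at. Day 2 was the highest array on both probe sets, whereas they placed day 1 on opposite sides of day 0. The differences for day 2 against day 0 were 0.50 and 0.26, under 2-fold, of which 0.40 and 0.36 lay in the second day. These are of the size of the pooled probe set SD or little above it.

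Hsph1, the HSP110 protein that makes HSP70 release its nucleotide, gave 3882, 3619 and 3878 on 1425993_a_at and 3100, 2648 and 2791 on 1423566_a_at. Both probe sets were lowest at day 1 and neither was higher at day 2 than at day 0. The differences for day 2 against day 0 were −0.001 and −0.15, within the probe set SD.

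Hspa8 encodes the constitutive HSP70, which folds new proteins and uncoats clathrin vesicles. Its brightest probe set, 1455789_x_at, gave 37038, 40278 and 39285 from day 0 to day 2, a difference of 0.08 at day 2. The other 3 probe sets gave 0.20 (1420623_x_at), −0.31 (1420622_a_at) and −0.06 (1431182_at) for day 2 against day 0. The 4 probe sets lay on both sides of 0, and none differed from it by more than the probe set SD of 0.34. Their signals ran from 616 to 40278, which shows how far probe sets for the same gene can differ in brightness, so signals are compared here only within a probe set.

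Hsp90aa1 is the stress-responsive cytosolic HSP90, which matures kinases and hormone receptors. Probe set 1437497_a_at gave 31853, 33945 and 32377 over the days, 1438902_a_at gave 32157, 32614 and 31757, and 1426645_at gave 26873, 31061 and 30847. The 3 bright probe sets were level, with differences of 0.02, −0.02 and 0.20 for day 2 against day 0. The dim probe set 1433251_at, at 86.1, 80.1 and 87.8, stayed close to the constant. The probe set below the filter, 1441827_x_at, gave 21.6, 74.0 and 63.4, so that its day 0 value lies under the constant and its order over the days is not resolved.

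Hspb1, a small heat shock protein that holds unfolded proteins and binds actin, gave 23777, 21683 and 23720 from day 0 to day 2 on 1422943_a_at and 23534, 19449 and 21510 on 1425964_x_at. Day 1 was the lowest array on both. The differences for day 2 against day 0 were −0.004 and −0.13, within the probe set SD.

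Hspd1 and Hspe1 encode HSP60 and HSP10, which together form the folding chamber of the mitochondrial matrix. Hspd1 gave 24372, 25629 and 25270 over the days on its 1 probe set, 1426351_at. Hspe1 gave 15990, 16367 and 16175 on 1450668_s_at, whose suffix marks probes shared between transcripts of several genes, and 7458, 7194 and 6075 on 1422579_at. The brighter signals of both genes differed by little between arrays, and the second probe set of Hspe1 was lowest at day 2. For day 2 against day 0 the differences were 0.05 for Hspd1 and 0.02 and −0.29 for Hspe1, all within the probe set SD.

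These genes lie head to head on chromosome 1 and share a promoter, and 285 bases of the Hspe1 window lie within the second of the Hspd1 windows in the table. It is shown because it serves both genes and holds the longer heat shock element. Capitals mark 18 bases with overlapping matches to 3 alternating units, which are GAANNTTC extended at its 3′ end by NNGAA, or the reverse complement of that. The matches start at −89 and −84 from the start of Hspe1. The window is from RefSeq, build GRCm38.p6, plus strand.
Hspe1, chr1:55087898-55088197: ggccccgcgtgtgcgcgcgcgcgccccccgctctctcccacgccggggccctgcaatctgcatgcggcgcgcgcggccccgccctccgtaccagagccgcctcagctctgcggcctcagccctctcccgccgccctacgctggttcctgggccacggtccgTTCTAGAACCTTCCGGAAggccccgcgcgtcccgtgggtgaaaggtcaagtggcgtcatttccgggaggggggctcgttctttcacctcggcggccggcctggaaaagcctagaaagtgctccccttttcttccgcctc

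Hspb1 and Hsph1 complete the set of windows with a match. The Hspb1 window holds 2 separate pairs of units, starting at −117 and −97 from the gene start, and the Hsph1 window holds a pair before the start and 3 units just after it. Both are shown for comparison with the windows above, with the same capitals, on the plus strand for Hspb1 and the minus strand for Hsph1.
Hspb1, chr5:135887669-135887968: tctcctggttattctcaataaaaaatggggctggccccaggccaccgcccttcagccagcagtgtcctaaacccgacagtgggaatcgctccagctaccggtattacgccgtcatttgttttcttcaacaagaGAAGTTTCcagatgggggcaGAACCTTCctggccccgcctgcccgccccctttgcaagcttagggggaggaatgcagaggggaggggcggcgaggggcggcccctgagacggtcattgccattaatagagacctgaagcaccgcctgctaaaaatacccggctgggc
Hsph1, chr5:149636287-149636586: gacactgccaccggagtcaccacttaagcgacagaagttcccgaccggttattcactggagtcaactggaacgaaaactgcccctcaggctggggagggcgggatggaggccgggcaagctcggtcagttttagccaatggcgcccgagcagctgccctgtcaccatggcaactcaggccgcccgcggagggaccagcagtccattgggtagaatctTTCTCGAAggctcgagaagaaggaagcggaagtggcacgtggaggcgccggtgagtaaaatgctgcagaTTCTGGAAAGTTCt

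Of the 10 genes 7 had a window in the promoter table, with 10 windows in all, and Hspa8, Hsp90aa1 and Hmox1 had none. The windows of Hspd1 and Hspe1 overlap, as do those of Hsph1, and those of Hspa1a and Hspa1b are nearly identical. The counts of windows and genes below are therefore not counts of separate promoters. A pair of units, GAANNTTC or TTCNNGAA, was found in 7 of the 10 windows, beside 15.1% of all 32851 windows of the same length. These windows belong to 6 of the 7 genes, all but Dnajb1. The match to 3 units, which contains a pair, was found in 4 of the 10 windows, beside 0.603% of all windows. These 4 belong to Hspd1, Hspe1 and Hsph1. They are not separate elements, because Hspd1 and Hspe1 share the same 18 bases and the windows of Hsph1 overlap. Each motif was searched on both strands. The pair was found both in genes that passed 2-fold at day 2, Hspa1a and Hspa1b, and in level ones such as Hspb1. Exact letters in a short window do not show what binds there. The core of the antioxidant element bound by NRF2, TGACNNNGC, was found in 3 of the 10 windows, of Dnajb1 and Hsph1, beside 12.4% of all windows. The GC box GGGCGG was found in all 10 windows, beside 35.7% of all windows, and TATAAA in 0 of the 10, beside 13.6%.

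Several of the level genes were read near the top of the signal range. On the day 0 array the probe set of Hspa8 stood at 83.5% of the highest signal, that of Hsp90aa1 at 71.8%, Hspd1 at 54.9%, Hspb1 at 53.6% and Hspe1 at 36.0%. The other genes within 2-fold were dimmer, Hsph1 at 8.75% and Dnajb1 at 4.62%. Hmox1 stood at 2.83%, Hspa1b at 1.55% and Hspa1a at 0.296%. Of the 167 measured genes whose mean signal was at least that of Hspe1, the dimmest of the 5 bright members, 1.2% were at least 2-fold higher at day 2 than at day 0 and 1.8% lower by as much, below the shares over all genes. Whether signals near the top of the range were compressed was not tested.

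**Figure D3:**
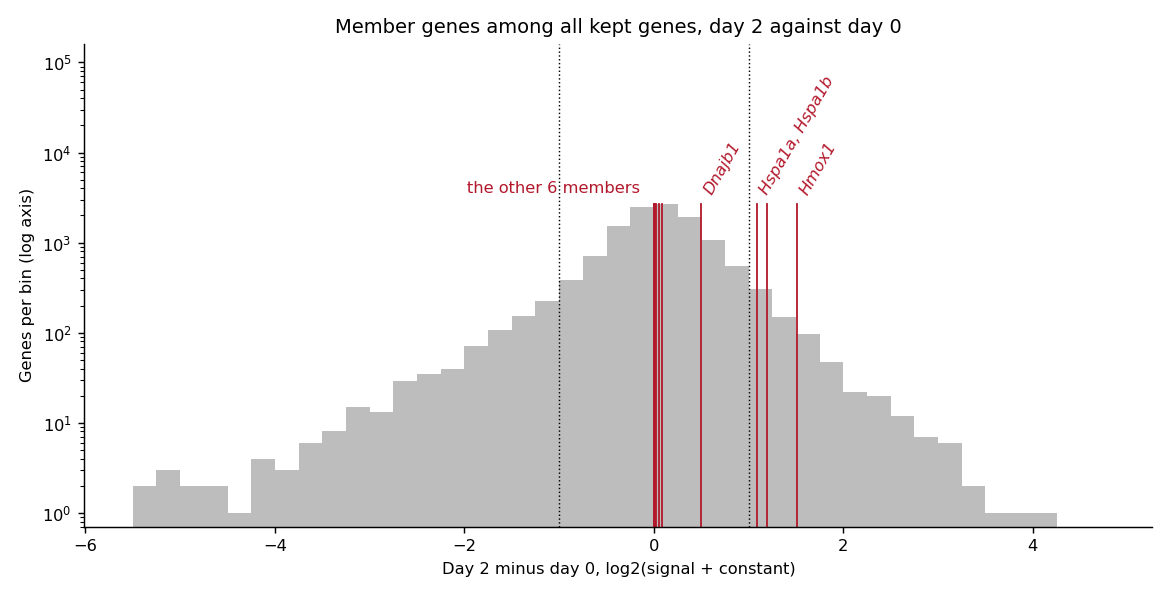
Number of genes (log axis) by difference of day 2 minus day 0 in log2(signal + constant), in bins of 0.25, over the 12717 measured genes. Red lines mark the 10 members and dotted lines 2-fold. The lines of 6 members crowd around 0, Dnajb1 stands at 0.50, and Hspa1a, Hspa1b and Hmox1 lie beyond 2-fold at 1.08, 1.20 and 1.51.

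Wider chaperone and stress-response genes were described with 13 lists from textbook knowledge, among them the NRF2 pathway and heme synthesis and breakdown. Over the 134 measured genes of these lists, members left out, at day 2 against day 0 there were 8 higher by at least 2-fold and 2 lower, with a median of 0.07. That is 124 genes within 2-fold, where 11331 of all 12717 genes were, and the backgrounds over all genes were those given above. In the first day alone, 2 were at least 2-fold up and 0 down, and in the second day alone 1 was up and 0 were down.

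Genes that heat is known to induce, other than the members, held most of the higher ones. Of 13 measured, 5 passed 2-fold upwards at day 2 and 0 downwards, beside 5.25% and 5.65% of all genes, with a median of only 0.05. Bag3, Hspa4l, Hspb8 and Cryab are counted again in other lists, and this list was chosen with earlier results known. Serpinh1, the collagen chaperone HSP47 of the endoplasmic reticulum, gave signals of 1210, 2763 and 3712 over the days, a difference of 1.57 for day 2 against day 0. Bag3, the co-chaperone that links HSP70 to small heat shock proteins and to autophagy, gave 353, 516 and 1031, a difference of 1.41. Both were higher on each day than on the day before, Serpinh1 mostly by day 1 and Bag3 mostly after it.

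Hspb8, the small heat shock protein that works with Bag3, gave 633, 634 and 1515 over the days on its brightest probe set. That is a difference of 1.19, all of it after day 1. The probe sets of Hspb8 ran from 0.66 to 1.19 and their mean was 1.01. Cryab, alpha B-crystallin, gave 329, 361 and 760, a difference of 1.08, or 0.94 with equal medians of ribosomal protein genes. Another probe set of Cryab gave 1.62. Among 5 small heat shock protein genes outside the members, Hspb8 and Cryab were the ones at least 2-fold higher on their brightest probe sets. Hspb6 was at −0.79, Hspb2 at 0.66, and 3 others were below the filter. Hspa4l, an HSP110 relative, gave 122, 164 and 341 and a difference of 1.16, but its probe sets ran from 0.02 to 1.65 and their mean was 0.80. Against these, Cacybp was at −0.70 in the heat-inducible list, and Hsp90ab1, Ubb and Hspa1l are not analysed here.

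In the HSP70 family outside the members, 2 of 9 measured genes were at least 2-fold higher at day 2 and 0 lower. The shares of all genes were 5.25% and 5.65%. Besides Hspa4l, the higher gene was Hspa12a, a distant relative of HSP70, with signals of 72.2, 215 and 449 and a difference of 1.98. Its day 0 signal lies close to the constant, and the difference was 1.61 with the constant doubled. Hspa5, the HSP70 of the endoplasmic reticulum, was at 0.51, and Hspa9, that of mitochondria, at −0.34. Their probe sets ran from 0.15 to 0.61 for Hspa5 and from −0.44 to 0.14 for Hspa9. Both measured genes of the HSP90 family, Trap1 of mitochondria (−0.41) and Hsp90b1 of the endoplasmic reticulum (0.005), stayed within 2-fold.

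Co-chaperones moved both ways. Of 18 measured, 3 were at least 2-fold higher and 1 was lower, beside 5.25% and 5.65% of all genes. The higher ones were all from the BAG family of HSP70 nucleotide exchange factors. Others of that family, Bag1 (−0.02), Bag4 (−0.29) and Bag6 (0.26), stayed within 2-fold. Bag2, an inhibitor of the ubiquitin ligase CHIP, gave 194, 380 and 642 over the days and a difference of 1.48. Bag5 gave 1006, 1786 and 2198 and a difference of 1.09, or 0.93 with equal medians of ribosomal protein genes. The probe sets of Bag5 ran from 1.09 to 1.90 for day 2 and from 0.79 to 1.91 for day 1 against day 0. Fkbp5, an HSP90 co-chaperone of steroid receptors, gave 3009, 1926 and 1361 and a difference of −1.11, or −0.90 as the mean over its probe sets. Its paralogue Fkbp4 was at −0.63, and the median of the list was −0.04.

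J-domain genes other than Dnajb1 stayed mostly in place. Of 30 measured 0 were at least 2-fold higher and 1, Dnajc21, at least 2-fold lower, with a median of −0.01. The shares over all genes were 5.25% higher and 5.65% lower. Dnajc21, which acts in ribosome assembly, gave 3308, 2142 and 1540 and a difference of −1.08, with probe sets between −1.66 and −0.42. Dnajc5 (0.72) and Dnajb12 (0.70) had the largest positive differences of the list on their brightest probe sets. The probe sets of Dnajc5 ran from 0.21 to 0.72, and those of Dnajb12 disagreed in sign, from −0.12 to 0.70.

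The folding machines that act on new proteins stayed within 2-fold on their brightest probe sets, as did 11331 of all 12717 genes measured. All 8 subunits of CCT, the chaperonin of actin and tubulin, stayed within 2-fold, from Cct8 at −0.26 to Tcp1 at 0.35, with Cct2 at 0.18 and a median of 0.05. Another probe set of Cct4, a gene at 0.15, gave 1.58 for day 2 and 1.87 for day 1 against day 0. All 6 subunits of prefoldin, which delivers clients to CCT, did so too, from Pfdn2 at −0.35 to Pfdn4 at 0.05, with Pfdn6 at −0.13 and Vbp1 at −0.06. Among 12 mitochondrial chaperones and proteases 0 passed 2-fold, with Trap1 at −0.41, the protease unfoldase Clpx at 0.37, Hspa9 at −0.34 and a median of −0.13, though a probe set of Grpel2 gave −1.20. The probe sets of Hspa9 lay on both sides of 0.

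Genes of the unfolded protein response and of endoplasmic reticulum folding stayed within 2-fold as well on their brightest probe sets, 22 of 22. Over all genes that was 11331 of 12717. Edem1, which sends misfolded glycoproteins to degradation, was at 0.76, Ddit3, the stress factor CHOP, at 0.66 and the disulfide isomerase gene Pdia4 at −0.59, with a median of 0.11. The probe sets of Edem1 ran from 0.42 to 0.76 and those of Ddit3 from 0.14 to 0.66. Other probe sets of Atf6 and Herpud1, genes at −0.13 and −0.25, gave −1.30 and −1.06. Of the heat shock factors, Hsf2, Hsf4 and Hsf5 were close to the constant, at signals between 40.9 and 105, with differences of 0.17, 0.29 and 0.39. Hsf1 is not analysed here. Hsbp1, which binds and restrains HSF1, gave 4102, 4871 and 6731 and a difference of 0.71.

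The lists nearest to Hmox1 in function stayed within 2-fold on their brightest probe sets. So did most of the array, 11331 of 12717 genes. In the NRF2 pathway 0 of 16 measured genes passed 2-fold in either direction at day 2. Of the 20 listed, Slc7a11 was below the filter and 3 had no probe set assigned to them alone. The largest differences in the NRF2 list were Gsr, glutathione reductase, at −0.74, the sulfiredoxin gene Srxn1 at 0.68, with probe sets between 0.63 and 1.60, and the malic enzyme gene Me1 at 0.66. The median was 0.28. Bach1, the heme-sensitive repressor of Hmox1, gave 1917, 3122 and 2843 and a difference of 0.56, and Keap1, which holds NRF2 back, was at 0.62. The probe sets of Bach1 ran from 0.009 to 0.56, so its difference depended on the probe set, and those of Keap1 from 0.49 to 0.62. In heme synthesis and breakdown 0 of 10 genes passed 2-fold, with a median of 0.22. Blvra, biliverdin reductase, which acts on the product of heme oxygenase, came nearest, with signals of 543, 922 and 1115 and a difference of 0.97. It was followed by the synthesis enzyme gene Alad at 0.68 and the other biliverdin reductase gene, Blvrb, at 0.45.

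**Figure D4:**
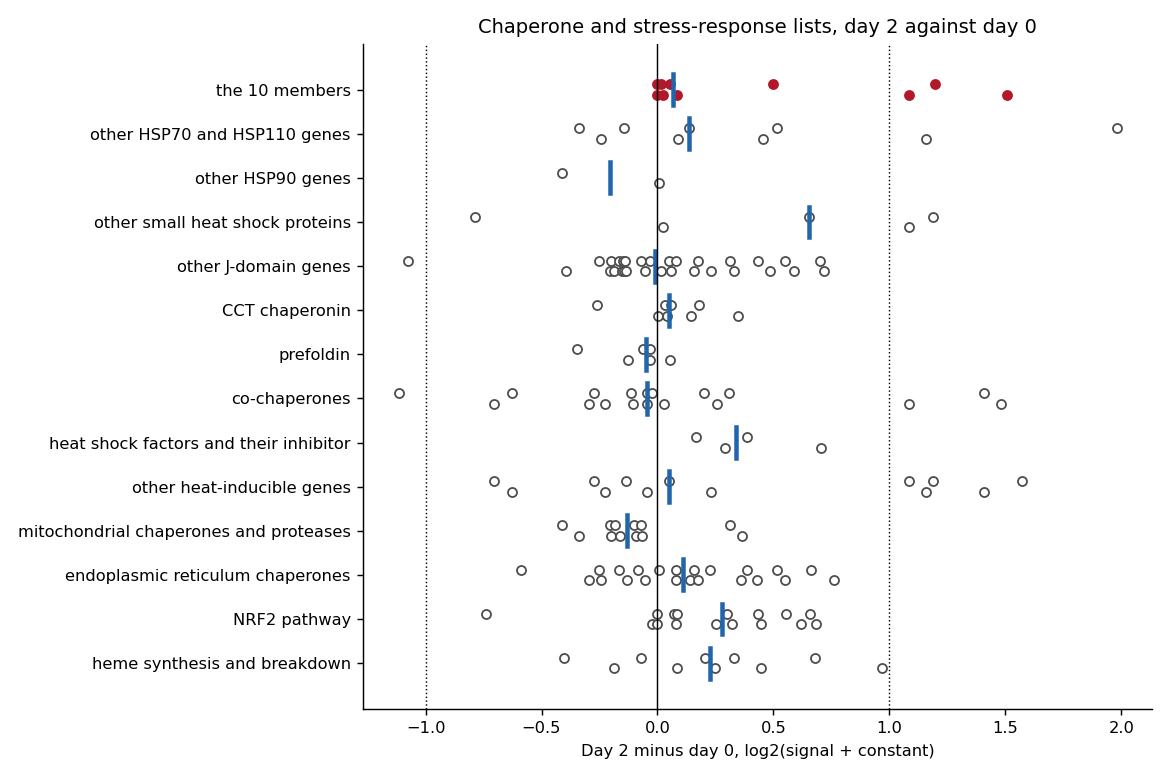
Difference of day 2 minus day 0 in log2(signal + constant) for each measured gene of the 10 members (red) and the 13 lists (open points). Blue bars are medians and dotted lines mark 2-fold. The higher genes sit in the heat-inducible, small heat shock protein, HSP70 and co-chaperone lists, which share members, and 0 genes of the CCT, prefoldin, mitochondrial, endoplasmic reticulum, NRF2 and heme lists pass 2-fold on the brightest probe sets plotted.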

How the data were processed

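Total RNA of 3 cultures was profiled on 1 Affymetrix array each. Per the labels' protocols, Trizol extraction and RNeasy columns were followed by biotin labelling. The submitters' processing notes name MAS5, with no version, and the intensity values deposited by the authors are linear, share a 2% trimmed mean of 498 and are never negative. Day 2 holds 45101 probe sets and the others 45037. The 64 extra ones are control probe sets and were left out.

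Arrays were scaled to a common trimmed mean, the constant was added and log2 taken, with Python 3.11.15, numpy 2.4.6 and pandas 2.3.3. The filter kept 26925 probe sets (59.8%) and 12717 genes. Genes were named from the platform annotation, updated by Entrez identifier through the RefSeq table of GRCm38.p6. In it 34945 probe sets name 1 gene, 932 several and 9160 none. With 1 array per day no test was made and genes were counted at 2-fold. The number of arrays limits the precision.

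The members and lists were chosen with earlier results of these data known. Named were all members, Pou5f1, the marker genes, the 3 genes per list that differed most between day 2 and day 0 plus those past 2-fold, and the 5 genes nearest to Hmox1, the member with the largest difference by brightest probe sets. A few other genes (such as Keap1, Bach1, Pfdn4 and genes whose probe sets disagree) were chosen after their values were seen. Counting was tested on simulated data.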

Additional observations from a re-analysis of the deposited data

How the results depend on the processing

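The results were recomputed under 8 alternatives: the constant doubled (112) or halved (27.9), no filter or one at the 60th percentile (a mean signal of 151), quantile normalisation, equal medians of 13 ribosomal protein genes, the mean over a gene's probe sets, and leaving out the suffixed probe sets (_x_at, _s_at and _a_at), which leaves 8 of the 10 members. The number of members at least 2-fold higher at day 2 against day 0 was 2 to 3, the 2 arising where Hspa1a fell short, at 0.90 with the constant doubled and 0.96 with equal ribosomal protein medians. For day 2 against day 1 it was 2 throughout, and the other 4 counts were 0 throughout. The median of the members ran from −0.10 to 0.35 over both days, from −0.11 to 0.19 in the first day and from 0.11 to 0.20 in the second, so the first 2 have no settled sign. Equal ribosomal protein medians moved the median of all genes by −0.15 at day 2 and −0.17 at day 1 against day 0, and gave 500 genes higher and 903 lower at day 2, beside 668 and 718. Hspa1b was at 1.71 over both days and 1.54 in the second day without the suffixed probe sets. Hmox1 stayed between 1.35 and 1.53. The same alternatives were run for the 10 pathway genes past 2-fold, chosen after seeing the data, and 7 of the 78 values fell below 2-fold, of Hspa4l, Cryab, Bag5 and Fkbp5. No paired analysis was possible because each day has 1 array.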

Other observations

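Counting Hspd1, Hspe1 and Hsph1, 60 measured genes have a promoter window with a match to 3 heat shock units. At day 2 against day 0, 4 of them (6.67%) were higher by at least 2-fold and 2 (3.33%) were lower, beside 5.19% and 5.33% of the 10297 measured genes with a window, and the medians were 0.05 and 0.05. The higher ones were Coro2a, Eme2, Fam149a and Rtn1 and the lower ones 4930444M15Rik and Slc29a1, named after their values were seen.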
